A study of Drosophila melanogaster with 14 samples.

Results

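The regions described here are the peaks of Yorkie (Yki), of GAGA factor (GAF) and of trimethylated histone H3 lysine 4 (H3K4me3) at 4 Hippo pathway loci of Drosophila melanogaster, ds, ft, ex and CycE. They were chosen as the called peaks that share at least 1 bp with a fixed window on chromosome arm 2L of the dm3 genome build. The windows run from 635000 to 720000 for ds (85 kb), from 4190000 to 4230000 for ft (40 kb), from 425000 to 455000 for ex (30 kb) and from 15720000 to 15760000 for CycE (40 kb). This gave 78 of the 29537 peaks in the series. The study mapped DNA bound by each protein, or carrying the histone mark, by chromatin immunoprecipitation followed by sequencing (ChIP-seq). All samples came from flies of the Iso1 strain, from which the reference genome was made, and the labels name no treatment or mutation. The wing disc groups were wing imaginal discs, the epithelial sacs of the larva that become the wings of the adult, taken from third-instar larvae (Yki, 1 library, and GAF, 2 libraries). The embryo groups were whole embryos collected 8 to 16 hours after egg laying (Yki, 3 libraries, GAF, 3 libraries, and H3K4me3, 2 libraries). Input chromatin was sequenced from wing discs (2 libraries) and embryos (1 library). The sample labels name H3K4me3 in embryos alone, so wing disc peaks are set here against the mark of another tissue. Both tissues mix many cell types, so a called peak does not say in which cells the protein was bound.

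The Hippo pathway restrains organ growth by keeping the coactivator Yki out of the nucleus, and Yki in the nucleus contacts DNA by way of binding partners, of which Scalloped is the best known. Dachsous, made from ds, is an atypical cadherin on the surface of one cell that acts as ligand for Fat, the giant atypical cadherin made from ft, on the next cell, and Fat acts as an upstream receptor of the pathway in growing discs. Expanded, made from ex, is a FERM-domain protein at the apical membrane that activates the pathway and is itself a well-known target gene of Yki. CycE encodes Cyclin E, which drives entry into DNA replication and is another known Yki target. GAF is the product of the gene Trithorax-like and keeps chromatin accessible at the GA repeats it recognises, and H3K4me3 is a mark of active promoters. All 4 symbols were found in the RefSeq gene table of Release 6, as Dmel_CG17941 (ds), Dmel_CG3352 (ft), Dmel_CG4114 (ex) and Dmel_CG3938 (CycE). That table is of another build than the peaks, so the windows were taken as given, and the position of a peak relative to exons, introns or promoters was not analysed here. By gene order in that table, the nearest protein-coding genes are CG2839 and Hsp60B for ds, Naprt and CG3702 for ft, BBS8 and shv for ex, and stol and ND-B17 for CycE. The gene crq and the long noncoding RNA gene CR43717 overlap ex there. The long noncoding RNA gene CR44988 overlaps ds, and the long noncoding CR44974 and antisense CR44866 RNA genes overlap CycE. No overlapping gene is listed for ft. Peaks in a window may therefore belong to a neighbouring gene.

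There was 1 deposited peak list per antibody and tissue. The values therefore have no replicate error, and no difference between lists or loci carries a p-value. Intervals on shares are exact (Clopper-Pearson) 95% binomial intervals, cover counting error only and treat neighbouring peaks as separate although several often lie on 1 site. The lists held 6491 Yki wing disc, 3749 Yki embryo, 6328 GAF wing disc, 6470 GAF embryo and 6499 H3K4me3 embryo peaks. Sequencing depth is unknown. The wing disc peaks carry a score set by the authors, of unstated scale, and the embryo peaks carry none. A score ranks a peak within its own list and is not compared between the Yki and GAF lists.

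At the 4 loci together, Yki had 25 peaks in wing discs and 8 in embryos, and GAF had 22 peaks in wing discs and 12 in embryos. Every Yki embryo peak at these loci, 8 of 8 (interval 63.1 to 100%), overlapped a Yki wing disc peak, where 66.2% of the whole Yki embryo list did. Conversely, 8 of 25 Yki wing disc peaks (32.0%, 15.0 to 53.5%) overlapped a Yki embryo peak, where 38.7% of the whole Yki wing disc list did. For GAF, 10 of 22 wing disc peaks (45.5%, 24.4 to 67.8%) overlapped an embryo peak, against 61.1% of the whole list, and 11 of 12 embryo peaks (91.7%, 61.5 to 99.8%) overlapped a wing disc peak, against 59.2%. Of these 4 intervals, only that of the GAF embryo peaks left out its whole-list share, with a lower bound of 61.5% against 59.2%. That interval counts neighbouring peaks separately, although at ex and at ft 2 GAF embryo peaks lay on 1 site. The share was 58.3% with midpoints within 500 bp and 41.7% with a reciprocal overlap of 50%. Whole-list shares at those settings are not given here, so no departure from the list is read from it. The windows held 0.385% of the Yki wing disc list, 0.213% of the Yki embryo list, 0.348% of the GAF wing disc list, 0.185% of the GAF embryo list and 0.169% of the H3K4me3 list. The wing disc peaks thus took a larger share of their list than the embryo peaks for both proteins. List length moves with depth and with calling threshold, and the calling may have differed between tissues. The Yki embryo list was the shorter of its pair (3749 against 6491 peaks), so fewer Yki embryo peaks cannot be told apart from a stricter embryo list. The GAF embryo list was slightly longer than the GAF wing disc list (6470 against 6328 peaks). What part depth and calling had in the fewer GAF embryo peaks was not tested.

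**Figure D1:**
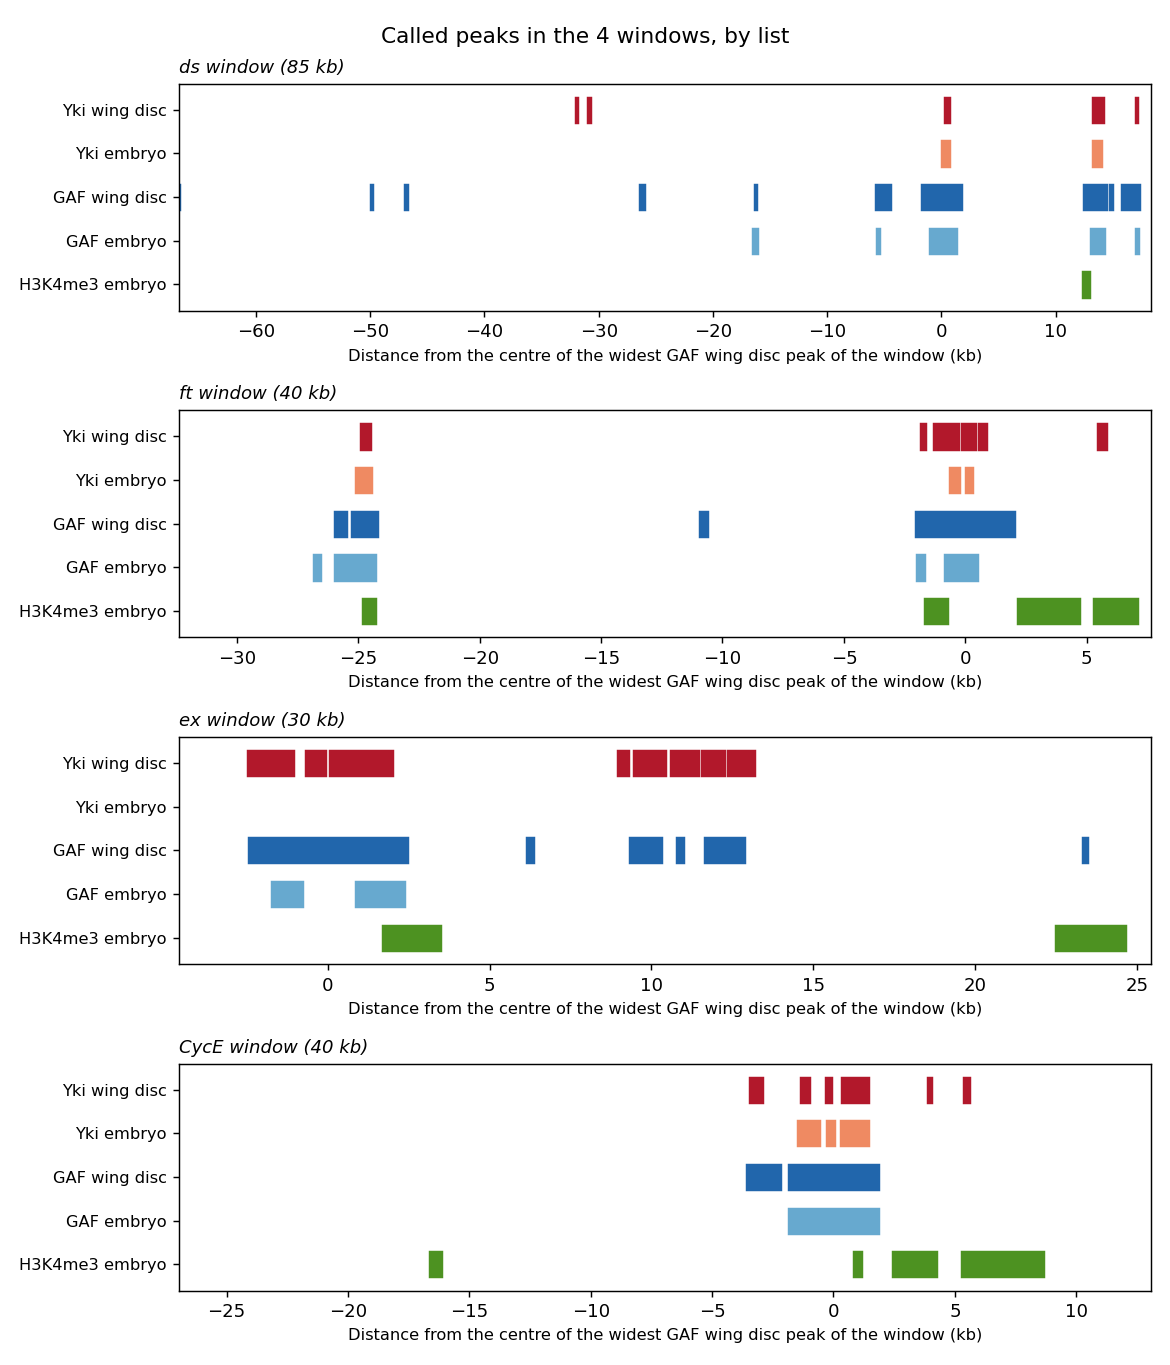
Called peaks of the 5 lists in the windows of ds, ft, ex and CycE, each bar 1 peak drawn at its own width, along the distance in kb from the centre of the widest GAF wing disc peak of that window. The Yki embryo row is empty at ex, where 8 Yki wing disc peaks lie, and at CycE the 3 Yki embryo peaks sit under 3 of the 6 Yki wing disc peaks.

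The ds locus, for the ligand Dachsous, had 5 Yki peaks in wing discs and 2 in embryos, 10 GAF peaks in wing discs and 5 in embryos, and 1 H3K4me3 peak. Its strongest sites were 2 places shared by all 4 Yki and GAF lists near the upper end of the window. At the site from 714077 to 716162, the Yki peaks ran from 714884 to 715948 in wing discs and from 714903 to 715759 in embryos, so the embryo peak lay wholly inside the wing disc peak and their midpoints were 85 bp apart. The Yki wing disc score there was 39.97, the highest of any Yki peak at the 4 loci, rank 255 of 6491. The GAF peaks around it measured 2086 bp in wing discs and 1305 bp in embryos, and the GAF wing disc score of 625.23 was rank 37 of 6328, above 99.4% of its list. The single H3K4me3 peak of the locus, from 714033 to 714712 (680 bp), lay under the lower end of this GAF wing disc peak over 636 bp. It ended 9 bp before the GAF embryo peak and 190 bp before the Yki embryo peak. The mark and the factors were thus adjacent in embryos, with no shared base.

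The other ds site held by all 4 lists, from 699933 to 703466, had a Yki peak of 542 bp in wing discs (score 26.58, rank 821) and of 766 bp in embryos. GAF covered 3534 bp there in wing discs (score 464.23, rank 209) and 2510 bp in embryos. The nearest H3K4me3 peak was 11591 bp from the Yki wing disc peak. GAF was also present in both tissues at 3 further ds sites, at 685154 to 685670, at 695907 to 697283 and at 717387 to 719112. Of these, the last also had a Yki wing disc peak, which was 209 bp wide with a score of 8.81, above only 10.8% of its list. The remaining Yki peaks of ds were a pair in wing discs at 669625 to 669868 (score 6.36) and 670683 to 671042 (score 8.39), and the nearest peak of another list was 4211 bp away. Their ranks of 6479 and 5960 place both near the bottom of the Yki list. GAF wing disc peaks without an embryo partner numbered 5 at ds, with scores of 72.75, 13.7, 21.6, 11.0 and 16.3. The first of these, from 633408 to 635098, enters the window by its upper end alone, and the Yki wing disc peak over it, from 633511 to 634661, ends 338 bp before the window.

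The ft locus, for the receptor Fat, had 6 Yki peaks in wing discs and 3 in embryos, 4 GAF peaks in each tissue and 4 H3K4me3 peaks. Both proteins gathered at 2 separate sites, each held by all 4 lists and each touched by H3K4me3. The lower site, from 4196359 to 4198194, had 1 Yki peak per tissue, of 453 bp in wing discs (score 17.98, rank 2028) and 704 bp in embryos. The wing disc peak lay wholly inside the embryo peak. GAF formed 2 peaks there in wing discs, with scores of 11.26 and 316.43, under 1 embryo peak of 1745 bp. An H3K4me3 peak of 547 bp, from 4197539 to 4198085, lay wholly inside the GAF peak of embryos and inside the stronger GAF peak of wing discs, and shared 350 bp with the Yki wing disc peak and 380 bp with the Yki embryo peak. This was 1 of 2 sites at the 4 loci where a Yki embryo peak met H3K4me3.

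The upper ft site, from 4220308 to 4224434, was a single GAF peak of 4127 bp in wing discs (score 386.82, rank 458, width rank 96 of 6328), under which lay 4 Yki wing disc peaks. The Yki scores along it were 9.15, 22.56, 24.54 and 12.83. Embryos had 2 Yki peaks, of 455 and 356 bp, under the pair of wing disc Yki peaks with the higher scores, and 2 GAF peaks, of 390 and 1439 bp. The outer 2 Yki peaks of wing discs had no Yki embryo partner. H3K4me3 ran from 4220662 to 4221677 and ended 22 bp before the first Yki embryo peak here, while 624 bp of it lay under the second Yki wing disc peak. A further Yki wing disc peak, from 4227788 to 4228190 (score 17.05), overlapped no GAF peak of either tissue and no Yki embryo peak, and lay wholly inside an H3K4me3 peak of 1847 bp. The largest H3K4me3 peak of the window, from 4224491 to 4227096 (2606 bp), overlapped no Yki or GAF peak and began 56 bp after the GAF wing disc peak. The single GAF embryo peak of the 4 loci without a wing disc partner was at ft, from 4195497 to 4195840 (344 bp).

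The ex locus, for the upstream activator Expanded, had 8 Yki peaks in wing discs and 0 in embryos, 6 GAF peaks in wing discs and 2 in embryos, and 2 H3K4me3 peaks. The Yki wing disc peaks formed 2 clusters. The first, from 427089 to 431599, held 3 peaks with scores of 21.59, 19.71 and 35.86 and gaps of 339 and 98 bp between them. The second, from 438530 to 442784, held 5 peaks with scores of 11.3, 35.86, 13.63, 26.06 and 26.58, separated by gaps of 52 to 116 bp. Yki peaks covered 26.7% of the ex window in wing discs and 0% in embryos. Scores at ex were high within the Yki list: 5 of 8 peaks were in its top 25%, a group that holds 24.6% of the whole list because of tied scores, and the third peak was 1980 bp wide, width rank 65 of 6491. The nearest Yki embryo peaks outside the window ended 9932 bp before it, at 414733 to 415067, and began 17082 bp after it, at 472083 to 472566.

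GAF was present at the first ex cluster in both tissues and at the second in wing discs alone. In wing discs, 1 GAF peak from 427108 to 432059 (4952 bp, score 137.28, rank 1728, width rank 52) overlapped all 3 Yki peaks of the first cluster, covering 98.7% of the first and the whole of the others. In embryos, GAF had 2 peaks inside that span, from 427828 to 428808 and from 430417 to 431961. The second cluster had 3 GAF wing disc peaks, with scores of 69.79, 8.11 and 82.18, and the nearest GAF embryo peak was 6568 bp from its first Yki peak. None of the 6 GAF peaks of ex was in the top 25% of the GAF wing disc list, a group that holds 25.0% of it. All 8 Yki peaks of ex overlapped a GAF wing disc peak, the fourth by 8 bp only. H3K4me3 met the first cluster at its upper end, with a peak from 431246 to 433073 (1828 bp) that shared 354 bp with the third Yki peak, 814 bp with the GAF wing disc peak and 716 bp with the second GAF embryo peak. The other H3K4me3 peak, from 452045 to 454233, held only a GAF wing disc peak of 200 bp (score 9.67), and the second Yki cluster was 5456 bp or more from the mark.

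Windows like ex were sought among all 3962 adjoining windows of 30 kb on arms X, 2L, 2R, 3L and 3R. At least 8 Yki wing disc peaks were found in 83 of them (2.09%), and 5 of the 83 held 0 Yki embryo peaks. In the 83 windows the median was 3 Yki embryo peaks (range 0 to 12), and 51.7% of all windows held none. One of the 5 was the window from 420001 to 450000 on 2L, which meets the ex window and held 12 Yki wing disc peaks. Of the others, the one from 19530001 to 19560000 on 3L was close to ex. It held 9 Yki and 6 GAF wing disc peaks with 3 GAF embryo peaks. The one from 16170001 to 16200000 on 3L held 12 Yki and 4 GAF wing disc peaks with 2 GAF embryo peaks. On 2L, the one from 18450001 to 18480000 held 8 Yki and 3 GAF wing disc peaks with 8 GAF embryo peaks. The one from 3180001 to 3210000 on 3L held 9 Yki wing disc peaks with 0 GAF peaks in both tissues, unlike ex. The Yki wing disc peaks also ran on below the ex window, with 6 more in the 10 kb before it and 0 in the 10 kb after it.

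The CycE locus, for Cyclin E, had 6 Yki peaks in wing discs and 3 in embryos, 2 GAF peaks in wing discs and 1 in embryos, and 4 H3K4me3 peaks. Most of the binding was at 1 site held by all 4 lists, from 15745058 to 15748827. GAF spanned it nearly base for base in the tissues, with 3770 bp in wing discs (score 362.17, rank 551, width rank 129 of 6328) and 3743 bp in embryos (width rank 185 of 6470), and the midpoints were 2.5 bp apart. Under it lay 3 Yki peaks in each tissue, paired one to one. Their widths were 399, 310 and 1188 bp in wing discs and 933, 359 and 1205 bp in embryos, and the midpoints of the pairs were 130, 79.5 and 22.5 bp apart. The third pair had the highest wing disc score of the locus, 37.61 (rank 301), and shared 1174 bp. It also held the H3K4me3 peak from 15747745 to 15748127 (383 bp), which lay wholly inside both Yki and both GAF peaks.

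The other CycE sites were found in wing discs and not in embryos. From 15743332 to 15744792 lay a GAF wing disc peak (score 138.22) over a Yki wing disc peak of 574 bp whose score of 30.83 was rank 537, above 91.2% of its list. Neither embryo list had a peak there, and the nearest GAF embryo peak was 281 bp from the GAF wing disc peak. Beyond the main site, 2 narrow Yki wing disc peaks, of 202 and 268 bp with scores of 9.85 and 13.23, lay wholly inside H3K4me3 peaks of 1864 and 3414 bp and carried no GAF in either tissue. The remaining H3K4me3 peak, from 15730289 to 15730811 (523 bp), was 12520 bp or more from any Yki or GAF peak. The lower part of the window, up to 15743332, held no Yki or GAF peak, and the nearest Yki wing disc peak before the window was 220366 bp away.

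**Figure D2:**
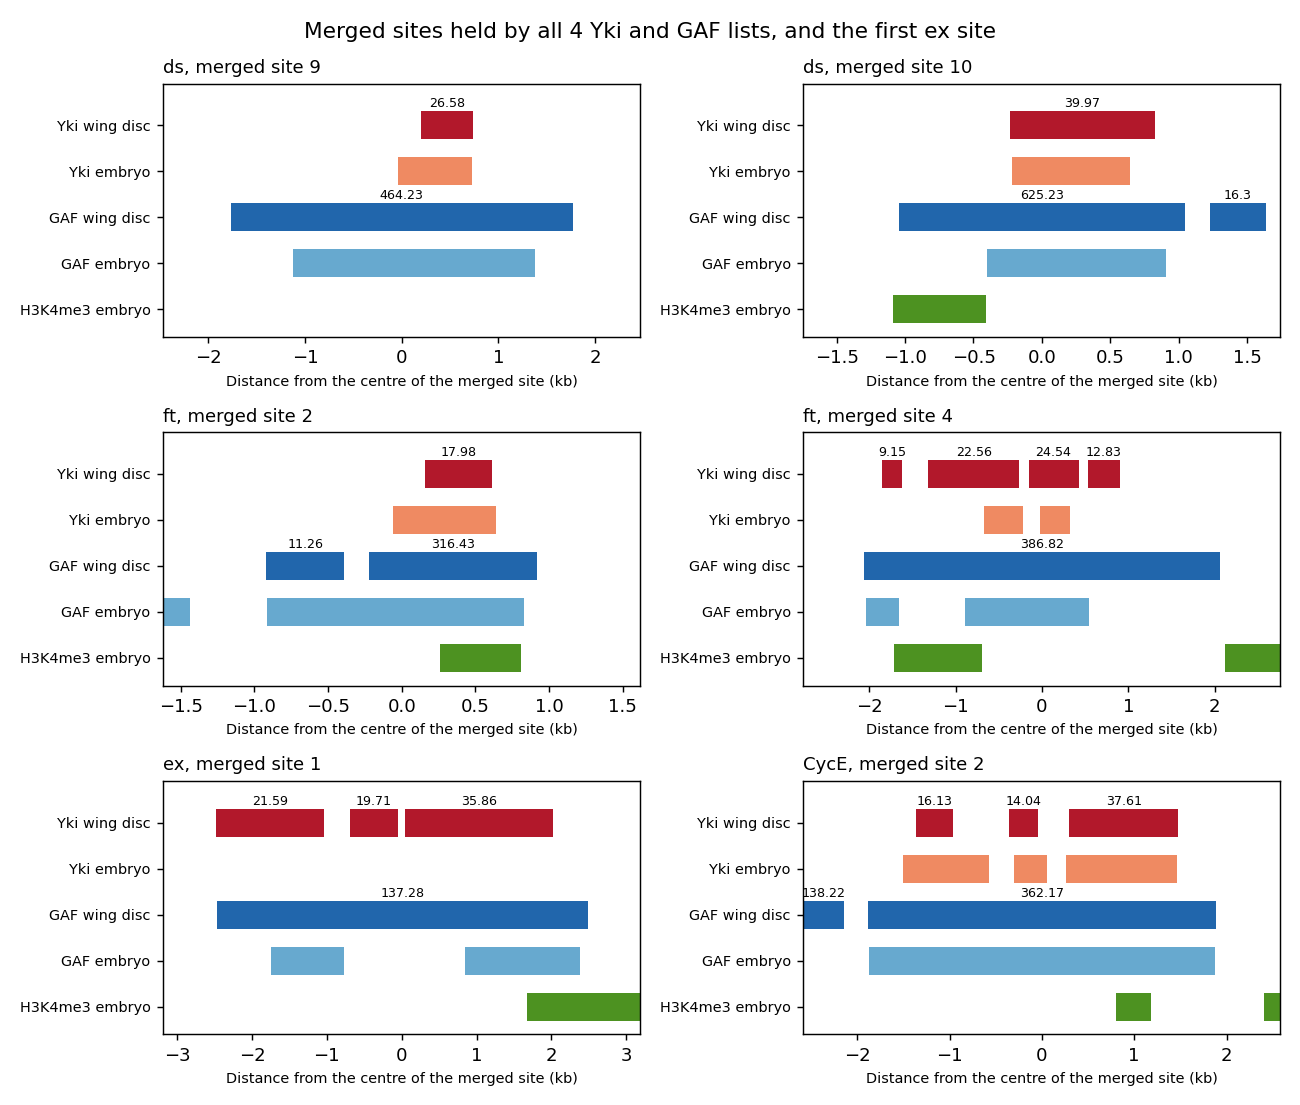
Peaks at the 5 merged sites held by all 4 Yki and GAF lists and at the first merged site of ex, along the distance in kb from the centre of the merged site, with the authors' score above each wing disc peak. Each of the 5 sites has Yki and GAF in both tissues, and the ex site has no Yki embryo peak. A single GAF wing disc peak overlaps 4 Yki wing disc peaks at ft merged site 4 and 3 each at ex merged site 1 and CycE merged site 2.

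Taking touching Yki and GAF peaks as 1 merged site gave 27 sites at the 4 loci, of 11285 in the series. All 4 lists held 5 of the 27 (18.5%), where 13.5% of all sites were held by all 4, and these 5 were 2 at ds, 2 at ft, 0 at ex and 1 at CycE. Wing disc lists alone held 17 of the 27 (63.0%), against 36.2% in the series, with 5 of 6 at ex, 7 of 12 at ds, 2 of 5 at ft and 3 of 4 at CycE. Embryo lists alone held 1 of the 27 (3.70%), against 26.8% in the series. The wing disc sites comprised 7 with GAF, 5 with Yki and 5 with both. The 5 sites held by all 4 lists were the only ones here with Yki in embryos, too few to set a rule for these loci. Other combinations occurred in the series. They included 432 sites (3.83%) with Yki embryo peaks alone, and 393 (3.48%) with Yki embryo and both GAF lists but no Yki wing disc peak. Sites in all 4 lists had a median width of 3534 bp (lowest 1836 bp) at these loci and 2025 bp in the series. The series medians were 515 bp for all merged sites and 339 bp for those of 1 list. A merged site is a union of touching peaks, so its width and its number of lists are tied by construction. The widest site of the windows, 4971 bp at ex, was held by 3 lists.

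**Figure D3:**
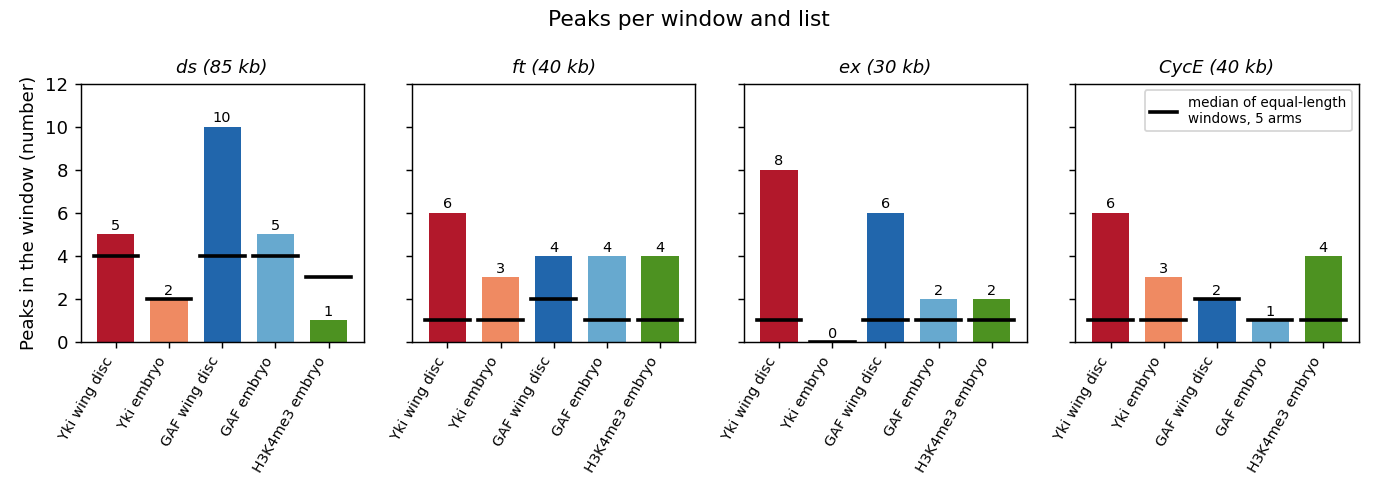
Number of peaks of each list in the windows of ds, ft, ex and CycE (bars), with the median number in adjoining windows of the same length over 5 chromosome arms (black lines). Yki wing disc peaks reached 8 at ex against a median of 1, whereas the single H3K4me3 peak of ds stood below a median of 3.

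Set against all adjoining windows of equal length on the 5 arms, Yki wing disc peaks were dense at ex, where 2.09% of windows held as many or more, and less so at ft and CycE, each 6 against a median of 1 (11.3% as many or more). At ds, 5 Yki wing disc peaks stood against a median of 4 (43.7%). Yki embryo peaks numbered 3 at ft and at CycE against a median of 1 (16.9%) and 2 at ds against a median of 2 (60.1%). GAF wing disc peaks were dense at ex (6 against a median of 1, 4.62%) and ds (10 against 4, 10.2%), near the median at CycE (2 against 2, 51.1%) and between at ft (4 against 2, 22.5%). GAF embryo peaks numbered 5 at ds against a median of 4 (41.0%), 4 at ft against 1 (21.2%), 2 at ex against 1 (39.2%) and 1 at CycE against 1 (72.9%). H3K4me3 peaks numbered 4 at ft and CycE (25.3%), 2 at ex (37.7%) and 1 at ds, where 82.4% of windows held as many or more. These percentages describe the windows and are not tests, and the adjoining windows were laid without regard to genes, unlike the 4 windows.

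Yki and GAF peaks often lay on each other at these loci, and each of the 4 shares had an interval that included the share of the whole list. GAF lay under 20 of 25 Yki peaks (80.0%, 59.3 to 93.2%) in wing discs, against 63.0% of the whole list, and under 8 of 8 (63.1 to 100%) in embryos, against 68.8%. Of the GAF peaks, 12 of 22 (54.5%, 32.2 to 75.6%) in wing discs overlapped Yki, against 51.8%, and 5 of 12 (41.7%, 15.2 to 72.3%) in embryos, against 32.7%. The Yki peaks were mostly narrow peaks within wide GAF peaks. Of 20 overlapping pairs in wing discs, 14 had the Yki peak wholly inside the GAF peak, as did all 8 pairs in embryos. The share of such pairs over the whole lists was not computed. Yki peaks were also the narrower over the whole lists, with median widths of 418 against 634.5 bp in wing discs and 438 against 583 bp in embryos. This nesting is therefore not shown to be particular to these loci. The 5 Yki wing disc peaks without GAF were the pair at ds, the last peak of ft and the last 2 of CycE, and the last 3 of these lay inside H3K4me3.

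**Figure D4:**
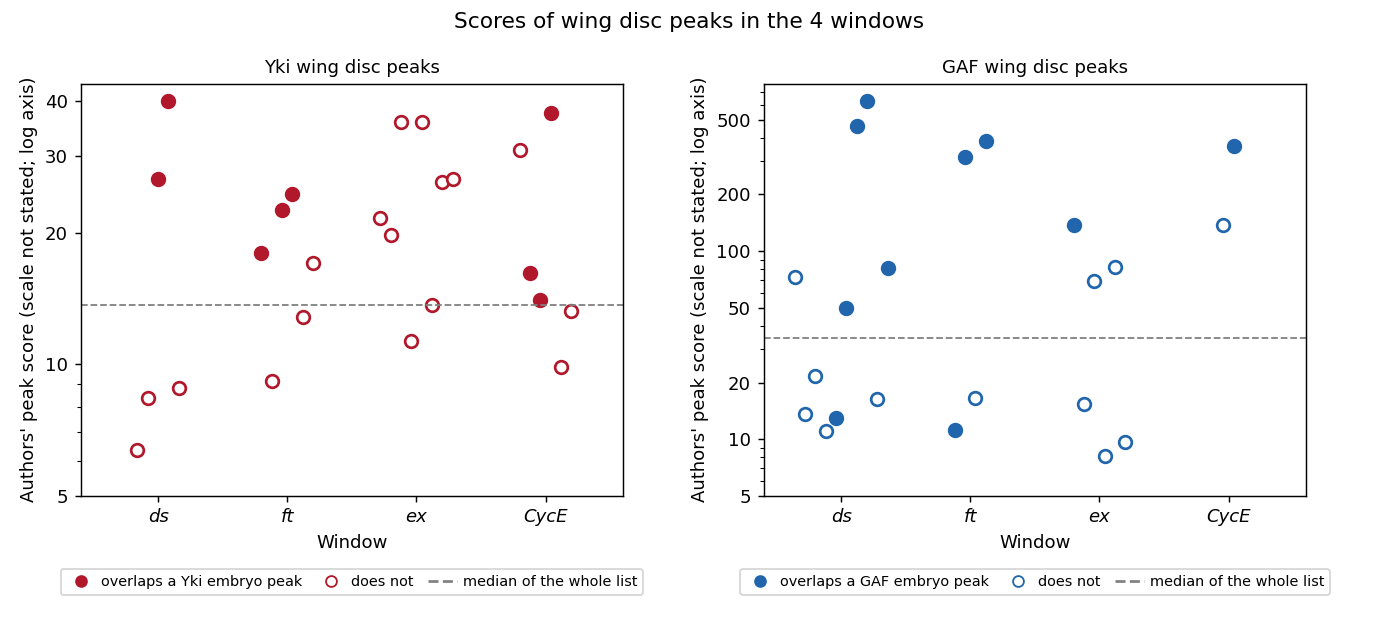
The authors' scores of the Yki and GAF wing disc peaks in the windows of ds, ft, ex and CycE on log axes, with filled points for peaks that overlap an embryo peak of the same protein, open points for the rest, and a dashed line at the median of the whole list. The 8 Yki wing disc peaks with a Yki embryo partner score from 14.04 to 39.97, and the open Yki points reach 35.86 at ex.

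Within wing discs, median scores were higher for peaks that overlapped any other Yki or GAF list than for the rest. The whole lists showed the same direction. For Yki peaks on GAF embryo peaks the medians were 21.59 against 15.34, and in the whole list 17.44 against 11.97. GAF peaks had 137.75 on Yki wing disc peaks against 14.5 off them, and in the whole list 114.9 against 18.87. On GAF embryo peaks they had 226.9 against 16.39 off them, and in the whole list 100.61 against 15.79. The other splits follow. Yki wing disc peaks with a Yki embryo partner had a median score of 23.55 (range 14.04 to 39.97, 8 peaks), and those without had 13.63 (6.36 to 35.86, 17 peaks), so the ranges overlapped. In the whole list the medians were 19.39 with a partner and 11.68 without. The highest scores without a partner were at ex, where 2 peaks reached 35.86, and at CycE, with 30.83. Yki wing disc peaks on GAF had a median score of 22.1 (8.81 to 39.97) and those off GAF 9.85 (6.36 to 17.05), against 15.97 and 11.3 in the whole list. GAF wing disc peaks separated fully by Yki in embryos: the 5 with a Yki embryo peak scored from 316.43 to 625.23 and the 17 without from 8.11 to 138.22. The medians in the whole list were 212.47 with a Yki embryo peak and 20.3 without, where the 2 ranges overlapped widely. The 5 GAF peaks were also wide, from 1137 to 4127 bp (median 3534 bp). The 17 without a Yki embryo peak measured from 200 to 4952 bp (median 496 bp), so the width ranges overlapped. Yki wing disc peaks had median widths of 612 bp on GAF wing disc peaks and 268 bp off them. With and without a Yki embryo partner their medians were 561.5 and 403 bp. A wide peak meets other peaks more readily, and the part of width in these score differences was not tested.

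H3K4me3 in embryos touched 8 of 25 Yki wing disc peaks (32.0%, 15.0 to 53.5%) and 2 of 8 Yki embryo peaks (25.0%, 3.19 to 65.1%), against 52.2% and 45.2% of the whole lists. It touched 6 of 22 GAF wing disc peaks (27.3%, 10.7 to 50.2%) and 5 of 12 GAF embryo peaks (41.7%, 15.2 to 72.3%), against 37.2% and 24.6%. The interval of each included its whole-list share, so no departure from the lists was detectable with so few peaks. By locus, the mark met 4 of 6 Yki wing disc peaks at ft, 3 of 6 at CycE, 1 of 8 at ex and 0 of 5 at ds. The median score was 17.5 for Yki wing disc peaks on the mark and 19.71 for those off it, against 14.04 and 13.23 in the whole list. For GAF wing disc peaks it was 339.3 on the mark (9.67 to 625.23, 6 peaks) and 19.04 off it (8.11 to 464.23, 16 peaks). The whole-list medians for GAF were 60.55 and 27.72. The GAF peaks on the mark were also wider, with a median of 2928 against 512 bp, whose part was not tested. The 11 H3K4me3 peaks measured from 383 bp at CycE to 3414 bp, also at CycE. Of these, 2 overlapped no Yki or GAF peak, the widest of ft and the first along CycE. The share of the whole H3K4me3 list without a Yki or GAF peak was not computed, so this count has no background.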

How the data were processed

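The deposited data were 5 peak lists, 1 per antibody and tissue, with start and end of each peak. In the deposited wing disc lists the authors also give a score per peak, of unstated scale, and peak names begin with MACS, a peak caller. The submitters' processing notes name CASAVA 1.7.0, BWA, Bowtie and the dm3 build. Calling thresholds, the embryo caller, the use of input and the pooling of replicates were not stated in the sources used here. Starts are counted from 0 in the files and from 1 in the text. Overlaps of at least 1 bp, ranks, merged sites (unions of touching Yki and GAF peaks) and adjoining windows of equal length were computed in Python 3.11.15 (scipy 1.17.1, pandas 2.3.3, numpy 2.4.6; plots in matplotlib 3.10.9). Simulated lists with known overlap were used to test the code. The loci, windows and descriptions were chosen with earlier results of these data known. The rule for named peaks took, in each window, the highest-scoring wing disc and widest embryo Yki and GAF peaks, all H3K4me3 peaks, all sites in 4 lists and the peaks nearest a window edge. Other peaks named, the score comparisons, the search for windows like ex and the flanking counts were chosen after their values were seen. Other Hippo pathway genes were not placed here. No test was run, since each antibody and tissue has 1 list.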

Additional observations from a re-analysis of the deposited data

How the results depend on the processing

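The alternatives were peak midpoints inside the window, windows 10 kb wider or 5 kb narrower on both sides, the top 50% of each list by score (wing disc) or width (embryo), a reciprocal overlap of 50%, midpoints within 500 bp, the ds window left out, and other ways to merge or tile. The 5 sites in all 4 lists numbered 5 under each of the 3 alternatives run for them. The total of merged sites, 27 in the main setting, did not stay fixed, so their share changed. It was 23 with gaps of up to 500 bp bridged, 28 with at least 100 bp shared and 14 with the top 50% of lists. With the top 50% of lists the windows held 12 GAF wing disc, 7 GAF embryo and 6 H3K4me3 peaks, which follows in part from removing peaks. With wider windows H3K4me3 peaks numbered 18, and at ex Yki numbered 14 in wing discs and 1 in embryos. With a reciprocal overlap, which narrow peaks within wide ones cannot meet, Yki on GAF fell to 12.0% in wing discs and 12.5% in embryos, GAF on Yki to 18.2% and 8.33%, GAF across tissues to 22.7% of wing disc and 41.7% of embryo peaks, and H3K4me3 was met by 8.0% of Yki wing disc peaks and 0% of GAF peaks in both tissues. With midpoints within 500 bp, Yki on GAF in wing discs was 44.0%, GAF embryo peaks on GAF wing disc peaks 58.3%, and H3K4me3 was met by 12.0% of Yki wing disc, 9.09% of GAF wing disc and 0% of GAF embryo peaks. With the top 50% of lists, GAF on Yki in wing discs was 83.3%, GAF embryo peaks on GAF wing disc peaks 100%, and H3K4me3 was met by 11.8% of Yki wing disc, 0% of Yki embryo, 8.33% of GAF wing disc and 14.3% of GAF embryo peaks. The causes were not tested otherwise. Without the ds window all 12 shares stayed inside their intervals, but H3K4me3 was met by 41.7% of GAF wing disc and 71.4% of GAF embryo peaks, each over 1.5 times the share with ds. GAF embryo peaks on Yki embryo peaks came to 71.4% in the top 50% of lists, and Yki embryo peaks on H3K4me3 to 45.5% with wider windows and 12.5% with a reciprocal overlap, also inside their intervals. Shares of Yki between tissues stayed inside theirs under the 5 alternatives run for them. On arm 2L alone, 18 of 20 percentages of equal-length windows left their counting interval, and the largest change from the value reported was 6.94 points. No paired analysis was possible because the lists carry no replicate values, and no replicate could be left out for the same reason.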
